A study of Mus musculus with 30 samples.

Results

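The MHC class I presentation genes described here are 10 mouse genes chosen by name from knowledge of the pathway: the heavy chain genes H2-K1 and H2-D1, the light chain gene B2m, the peptide transporter and loading genes Tap1, Tap2 and Tapbp, the immunoproteasome genes Psmb8, Psmb9 and Psmb10, and the regulator gene Nlrc5. All 10 were among the 27738 gene symbols listed in each of the 4 bulk RNA-seq tables and both single-cell matrices, and all 10 passed the filter on low counts in every bulk table. The study asked why cardiac fibroblasts of older mice are harder to reprogram into cardiomyocyte-like cells with MGT (the transcription factors Mef2c, Gata4 and Tbx5), and what the nuclear receptor Nr4a3 does in this process. All samples, controls included, were labelled wild-type (WT) cardiac fibroblasts (CFs).

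The bulk data held 14 groups of 2 libraries, 28 in all, and the single-cell data held 1 library at each of 2 ages. Untransduced CFs cultured for 3 days came from neonatal mice (postnatal days 1 to 3) and from mice of 3, 12 and 24 months. CFs given MGT, or LacZ as the control, were collected at day 3 from neonatal, 3-month and 18-month mice. MGT cells of 3-month mice that carried a short hairpin RNA against Nr4a3 (shNr4a3), or a non-targeting hairpin (shNT), were collected at day 7. Neonatal CFs that overexpressed Nr4a3 (OENr4a3), or carried the control construct (OECtrl), were collected at day 10 per the sample labels, while the design text gives day 7. The single cells were MGT cells from 24-month and neonatal mice. The labels do not say whether replicates came from separate animals or cultures, so a p-value reflects no more than the variation between libraries, which may be technical.

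MHC class I molecules display peptides cut from a cell's own proteins to cytotoxic T cells. The immunoproteasome subunits replace the constitutive catalytic subunits and shape which peptides are cut, the transporter made by Tap1 and Tap2 moves the peptides into the endoplasmic reticulum, and tapasin, the product of Tapbp, holds empty class I molecules beside the transporter until a peptide is bound. Most nucleated cells, fibroblasts included, transcribe these genes at a basal level and raise them together in response to interferons, and Nlrc5 is the transactivator of class I promoters.

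In the GRCm38 annotation (GENCODE M21), 7 of the 10 genes lie on chromosome 17 between 33915899 and 35267499, inside the major histocompatibility complex. B2m lies on chromosome 2, and Psmb10 and Nlrc5 lie on chromosome 8. Tap1 (chr17:34187553-34197225, plus strand) and Psmb9 (chr17:34181987-34187764, minus strand) point away from each other and overlap at their starts in that annotation. RefSeq (GRCm38.p6) promoter windows of 200 bases before the start were listed for 8 of the 10 genes. Only 1 start per gene was used, the last along its own strand. The windows of H2-D1, Tapbp, Psmb8 and Psmb9 lie inside the GENCODE spans of these genes. The bases before the GENCODE starts of these genes were therefore not searched. The windows of both heavy chain genes and of B2m, and the stretch shared by Tap1 and Psmb9, are printed. The windows of Tapbp, Psmb8 and Psmb10 are not. Psmb8 and Psmb10 moved with the printed genes in most of the comparisons that follow. Capitals mark 4 motifs searched on both strands: an interferon regulatory factor (IRF) motif (GAAANNGAA or GAANNGAAA), the NF-kappaB motif, the Y box (ATTGG, or CCAAT on the other strand) and TGACG, the core of cyclic AMP response elements.
H2-K1, chr17:34000334-34000533, minus strand: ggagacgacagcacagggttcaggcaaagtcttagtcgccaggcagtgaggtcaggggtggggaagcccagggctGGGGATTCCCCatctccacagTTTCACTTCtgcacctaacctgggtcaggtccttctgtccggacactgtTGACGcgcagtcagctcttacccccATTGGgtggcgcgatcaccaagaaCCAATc
H2-D1, chr17:35262894-35263093, plus strand: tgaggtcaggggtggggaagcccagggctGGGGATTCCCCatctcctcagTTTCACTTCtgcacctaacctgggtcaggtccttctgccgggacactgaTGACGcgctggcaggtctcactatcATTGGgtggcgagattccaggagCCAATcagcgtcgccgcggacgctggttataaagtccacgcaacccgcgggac
B2m, chr2:122147487-122147686, plus strand: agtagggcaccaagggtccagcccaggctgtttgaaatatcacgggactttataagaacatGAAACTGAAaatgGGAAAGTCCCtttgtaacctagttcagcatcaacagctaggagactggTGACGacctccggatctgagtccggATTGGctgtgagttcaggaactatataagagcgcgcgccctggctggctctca
Tap1 and Psmb9, chr17:34187331-34187555, plus strand: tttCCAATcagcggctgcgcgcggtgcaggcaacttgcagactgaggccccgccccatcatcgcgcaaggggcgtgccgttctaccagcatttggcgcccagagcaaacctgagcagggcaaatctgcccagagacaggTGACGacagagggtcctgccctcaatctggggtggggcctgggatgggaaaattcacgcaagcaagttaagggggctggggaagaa
Over 154 aligned bases, the H2-K1 and H2-D1 windows were identical at 130 (84.4%). The windows of H2-K1, H2-D1 and B2m each held all 4 motifs. They are among the 11 of 27020 promoters of the same length that do (0.0407%), which also include those of the class I genes H2-M3, H2-Q4 and H2-Q7. The motifs searched are those of factors known to act at class I promoters, so these windows were likely to hold them. The H2-K1 and H2-D1 windows are also near copies of each other. The low share is therefore not an independent result about these genes. Taken singly, the IRF motif was in 10.1% of all promoters, the NF-kappaB motif in 5.93%, the Y box in 29.5% and TGACG in 15.3%. Of the other listed windows, that of Tapbp held the Y box only, and those of Psmb8 and Psmb10 held none of the 4. For Tapbp and Psmb8 this describes windows inside the annotated genes, not the bases before their GENCODE starts. The 225 bases between the RefSeq starts of Tap1 and Psmb9 held the Y box and TGACG. A match describes letters in a window and shows neither a bound site nor a cause.

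In untransduced CFs, all 10 genes were higher at 3, 12 and 24 months than in the neonatal cells. The steps among the adult ages were smaller: 9 of the 10 were lower at 12 months than at 3 months, and all 10 were higher again at 24 months, where H2-K1, H2-D1 and B2m passed their 3-month levels. Levels are CPM, the count of a gene scaled to its library total and normalised within each table, and each fold change is a log2 value with its standard error (SE) from edgeR's quasi-likelihood test, with p-values adjusted over all genes tested in the table.

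H2-K1, a classical heavy chain gene, had 61.7 and 64.0 CPM in neonatal CFs, 318 and 326 CPM in 3-month CFs, 258 and 237 CPM in 12-month CFs, and 379 and 438 CPM in 24-month CFs. H2-D1, the other classical heavy chain gene, had 114 and 121, 380 and 398, 330 and 303, and 459 and 514 CPM at the same 4 ages. B2m, whose product pairs with every class I heavy chain, had 471 and 450, 954 and 943, 782 and 705, and 1033 and 1146 CPM. For all 3 genes the libraries of the 4 ages did not overlap, and the order from low to high was neonatal, 12, 3 and 24 months. The 24-month over neonatal log2 fold change was 2.70 ± 0.06 for H2-K1 (adjusted p = 6.47e-21), 2.05 ± 0.05 for H2-D1 (adjusted p = 7.35e-23) and 1.24 ± 0.05 for B2m (adjusted p = 1.73e-17). H2-K1 was 6.50-fold higher and B2m 2.37-fold higher.

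Tap1, a subunit of the peptide transporter, had 26.0 and 23.5 CPM in neonatal CFs, 58.1 and 64.3 CPM in 3-month CFs, 44.9 and 48.4 CPM in 12-month CFs, and 50.8 and 57.2 CPM in 24-month CFs. Tap2, the other transporter subunit, had 15.8 and 14.04, 49.6 and 46.9, 44.3 and 47.8, and 52.5 and 54.9 CPM. Tapbp had 48.7 and 47.5, 159 and 167, 115 and 101, and 156 and 177 CPM. The neonatal libraries were the lowest for all 3 genes, and the 12-month Tapbp libraries lay between the neonatal libraries and the others. The 24-month over neonatal log2 fold change was 1.12 ± 0.08 for Tap1, 1.84 ± 0.08 for Tap2 and 1.79 ± 0.06 for Tapbp (adjusted p = 3.48e-14, 1.12e-19 and 4.66e-19).

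Psmb8 encodes the immunoproteasome subunit that replaces Psmb5. Psmb8 had 2.96 and 4.55 CPM in neonatal CFs, 29.8 and 28.3 CPM in 3-month CFs, 23.4 and 20.8 CPM in 12-month CFs, and 32.9 and 32.9 CPM in 24-month CFs. Psmb9, which replaces Psmb6, had 0.7505 and 0.796, 4.68 and 5.18, 3.15 and 2.89, and 4.60 and 4.56 CPM. Psmb10, which replaces Psmb7, had 8.21 and 7.28, 22.2 and 24.4, 15.2 and 16.97, and 22.6 and 23.6 CPM. The neonatal libraries were lowest and the 12-month libraries next for each of the 3 subunits. Psmb8 had the largest of the 10 fold changes at 24 months over neonatal, with a log2 value of 3.16 ± 0.13 (adjusted p = 2.49e-20), an 8.92-fold difference. For Psmb9 the log2 value was 2.56 ± 0.26 (adjusted p = 3.77e-10) and for Psmb10 it was 1.57 ± 0.11 (adjusted p = 7.27e-14).

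Nlrc5 had 6.57 and 5.63 CPM in neonatal CFs, 31.8 and 35.7 CPM in 3-month CFs, 25.9 and 23.7 CPM in 12-month CFs, and 33.6 and 34.6 CPM in 24-month CFs. Its neonatal libraries were lowest and its 12-month libraries next, and the 3-month and 24-month libraries overlapped. The 24-month over neonatal log2 fold change of Nlrc5 was 2.47 ± 0.11 (edgeR adjusted p = 1.60e-19).

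**Figure D1:**
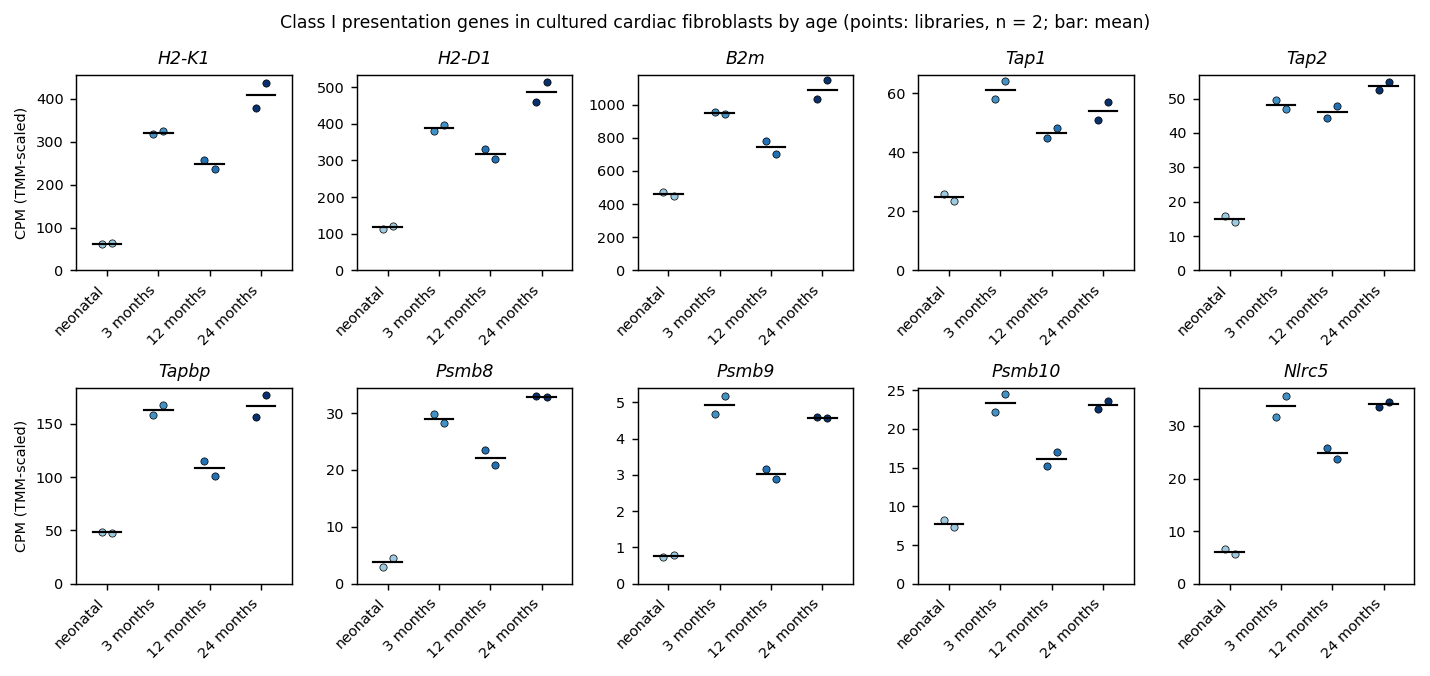
CPM of each of the 10 genes (vertical axes from 0, a separate scale per gene) in untransduced CFs of 4 ages on the horizontal axes; points are libraries (n = 2 per age) and bars are means. H2-K1 lies at 61.7 to 64.0 CPM in neonatal, 318 to 326 CPM in 3-month, 237 to 258 CPM in 12-month and 379 to 438 CPM in 24-month CFs.

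All 10 genes were called higher than in neonatal CFs at 3 months, where 28% of all 16466 genes tested were called higher, at 12 months (29.7% of all genes) and at 24 months (27.9%), with median log2 fold changes over the 10 genes of 1.74, 1.53 and 1.95. The median over all genes was 0.01, 0.03 and -0.01. These comparisons share the neonatal libraries. At 12 months, 9 of the 10 genes fell relative to 3 months, against 15.5% of all genes called lower, with log2 fold changes of -0.30 (H2-D1) to -0.71 (Psmb9). Tap2 had a log2 value of -0.07 ± 0.07 there (adjusted p = 0.531). At 24 months all 10 rose relative to 12 months, against 10.8% of all genes, by log2 values of 0.21 (Tap1) to 0.72 (H2-K1). Relative to 3 months, 3 of the 10 rose at 24 months, against 8.85% of all genes: H2-K1 by 0.34 ± 0.05, H2-D1 by 0.32 ± 0.05 and B2m by 0.20 ± 0.05 (adjusted p = 4.05e-05, 1.35e-05 and 0.00342). Tap1 had a log2 value of -0.18 ± 0.07 in the same comparison (adjusted p = 0.0671), and it was called lower without either 24-month replicate 2 (-0.27) or 3-month replicate 1 (-0.25), while it was -0.09 without 24-month replicate 1 and -0.10 without 3-month replicate 2.

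Leaving out 1 library ended some of the calls among adult ages. The B2m rise at 24 over 3 months was 0.12 (adjusted p = 0.117) without 24-month replicate 2. Between 24 and 12 months, Psmb9 lost its call without any 1 of 12-month replicate 1, 12-month replicate 2, 24-month replicate 1 or 24-month replicate 2 (log2 values of 0.66, 0.54, 0.60 and 0.61), and Tap1 and Tap2 lost theirs without 12-month replicate 1 (0.16 and 0.17) or 24-month replicate 2 (0.12 and 0.19). DESeq2 did not call these 3 genes there either (adjusted p = 0.222, 0.143 and 0.0995). Between 12 and 3 months, Psmb8 lost its call without 12-month replicate 2 (-0.31). Psmb9 lost its call there without 12-month replicate 2 (-0.64) or 3-month replicate 2 (-0.63), and in DESeq2 (adjusted p = 0.0911).

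Other features of the cells differed with age beside these genes, and their part in the differences was not tested. Summed over the 10 macrophage markers, the level was 312 to 319 CPM in neonatal CFs, 143 to 163 CPM in 3-month CFs, 230 to 244 CPM in 12-month CFs and 220 to 232 CPM in 24-month CFs. The summed endothelial markers were at 1180 to 1197 CPM in neonatal CFs and at most 230 CPM in adult CFs. The summed cardiomyocyte markers were at 1061 to 1148 CPM in neonatal CFs and 10.4 to 34.8 CPM in adult CFs, the epicardial markers at 153 to 155 CPM and 1.19 to 4.18 CPM, and the pericyte or smooth muscle markers at 509 to 528 CPM and 97.1 to 175 CPM. The summed dendritic cell markers were at 29.8 to 31.9 CPM in neonatal CFs and 9.98 to 13.4 CPM in adult CFs, and the summed fibroblast markers were at 18031 to 29429 CPM across the 4 ages. The lymphocyte markers summed to at most 0.68 CPM in any library of the ages or of the MGT and LacZ cells. In bulk samples, fewer cells of a type and less RNA per cell cannot be told apart. Xist, transcribed from the inactive X chromosome of female cells, averaged 1283 and 804 CPM in neonatal and 24-month CFs, against 0.464 and 0.367 CPM in 3-month and 12-month CFs. The 4 Y-linked genes summed to 49.3 to 49.6 CPM in neonatal and 77.4 to 77.5 CPM in 24-month CFs, against 259 to 264 CPM in the other ages. Age and sex therefore cannot be told apart where 3-month or 12-month cells are set against neonatal or 24-month cells. Both 24-month and neonatal cells had high Xist, but it was lower at 24 months (log2 value -0.67 ± 0.04). The 4 Y-linked genes were each higher at 24 months than in neonatal cells, by log2 values of 0.45 to 0.76. The mix of sexes may thus differ there too, and its part in the higher levels of the 10 genes was not tested. Nr4a3 itself averaged 1.19, 2.25, 4.30 and 3.42 CPM at the 4 ages.

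In the cells given LacZ or MGT, the oldest cells had the lowest levels. All 10 genes were lower in 18-month LacZ cells than in neonatal or 3-month LacZ cells, and the same held among the MGT cells. With MGT, 9 of the 10 genes were lower than with LacZ in 3-month cells, 3 of the 10 were lower in neonatal cells and none was called lower in 18-month cells, where Tapbp was higher. Of the delivered factors, Mef2c and Tbx5 were higher with MGT than with LacZ by log2 values of 3.51 to 8.80, and Gata4 by 0.84 to 1.06, over the 3 ages.

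H2-K1 had 375 and 344 CPM in neonatal MGT cells, against 374 and 368 CPM in neonatal LacZ cells. It had 359 and 342 CPM in 3-month MGT cells, against 436 and 585 CPM in 3-month LacZ cells, and 157 and 172 CPM in 18-month MGT cells, against 145 and 138 CPM in 18-month LacZ cells. The MGT and LacZ libraries overlapped in neonatal cells only, and MGT lay below LacZ at 3 months and above it at 18 months. The log2 fold change of MGT over LacZ was -0.54 ± 0.10 at 3 months (adjusted p = 3.52e-04). For H2-D1 it was -0.40 ± 0.09 and for B2m -0.46 ± 0.10 at that age (adjusted p = 0.00342 and 0.00128). The H2-D1 value was -0.21 without LacZ replicate 2 and -0.33 without MGT replicate 2, neither of which passed the test. Without LacZ replicate 2 the H2-K1 value was -0.31 and the B2m value -0.26, and both were still called.

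The transporter gene Tap1 had 70.05 and 65.3 CPM in neonatal MGT cells, against 80.1 and 93.0 CPM in neonatal LacZ cells. At 3 months it had 33.7 and 33.4 CPM with MGT, against 86.1 and 86.1 CPM with LacZ, and at 18 months 19.1 and 22.1 CPM with MGT, against 19.1 and 22.02 CPM with LacZ. The 3-month libraries with MGT were well below those with LacZ, while the 18-month libraries were all low and overlapped. The log2 fold change of MGT over LacZ was -1.36 ± 0.10 at 3 months (adjusted p = 1.89e-10) and -0.35 ± 0.10 in neonatal cells (adjusted p = 0.0233). Tap2 had 30.8 and 31.4 CPM with MGT at 3 months, against 62.3 and 64.5 CPM with LacZ, a log2 value of -1.03 ± 0.10 (adjusted p = 1.44e-08). Tapbp had 199 and 191 CPM with MGT at 3 months, against 231 and 267 CPM with LacZ. At 18 months it had 98.4 and 108 CPM with MGT, against 72.8 and 69.9 CPM with LacZ. The Tapbp libraries did not overlap at either age, but the direction differed: -0.35 ± 0.09 at 3 months (adjusted p = 0.00435) and 0.53 ± 0.09 at 18 months (adjusted p = 1.21e-04). The 3-month Tapbp value did not pass the test without MGT replicate 2 (-0.33), nor did those of Tapbp and H2-D1 in a fit of the 3-month groups alone (-0.34 and -0.38).

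Among the immunoproteasome genes, Psmb9 had 4.16 and 5.15 CPM in neonatal MGT cells, against 7.35 and 8.004 CPM in neonatal LacZ cells. At 3 months it had 2.11 and 3.17 CPM with MGT, against 9.72 and 10.5 CPM with LacZ, and at 18 months 1.19 and 1.12 CPM with MGT, against 1.68 and 0.684 CPM with LacZ. Psmb9 was lower with MGT in both younger ages, without overlap, and its 18-month libraries overlapped. The log2 fold change at 3 months was -1.95 ± 0.26 (adjusted p = 2.18e-06), the largest of the 10. Psmb8 had 28.1 and 25.5 CPM with MGT at 3 months, against 56.5 and 71.8 CPM with LacZ (log2 value -1.26 ± 0.14, adjusted p = 1.48e-07). Psmb10 had 19.2 and 19.9 CPM with MGT at 3 months, against 37.5 and 38.8 CPM with LacZ (log2 value -0.97 ± 0.12, adjusted p = 1.04e-06). In neonatal cells Psmb8 fell by 0.72 ± 0.14 and Psmb10 fell by 0.59 ± 0.12 on the log2 scale with MGT (adjusted p = 9.67e-04 and 0.00113). Psmb9 had a log2 value of -0.72 ± 0.24 in neonatal cells (adjusted p = 0.0649). The regulator Nlrc5 had 25.3 and 26.8 CPM with MGT at 3 months, against 49.1 and 32.7 CPM with LacZ. Its log2 value of -0.65 ± 0.22 did not pass the test (adjusted p = 0.0773), and single settings moved it both ways. It was -0.34 without LacZ replicate 1 (adjusted p = 0.228) and -0.91 without LacZ replicate 2 (adjusted p = 0.00433), and it was called in DESeq2 (adjusted p = 0.0122), without the filter on low counts (adjusted p = 5.20e-06) and in a fit of the 3-month groups alone (adjusted p = 0.0406).

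**Figure D2:**
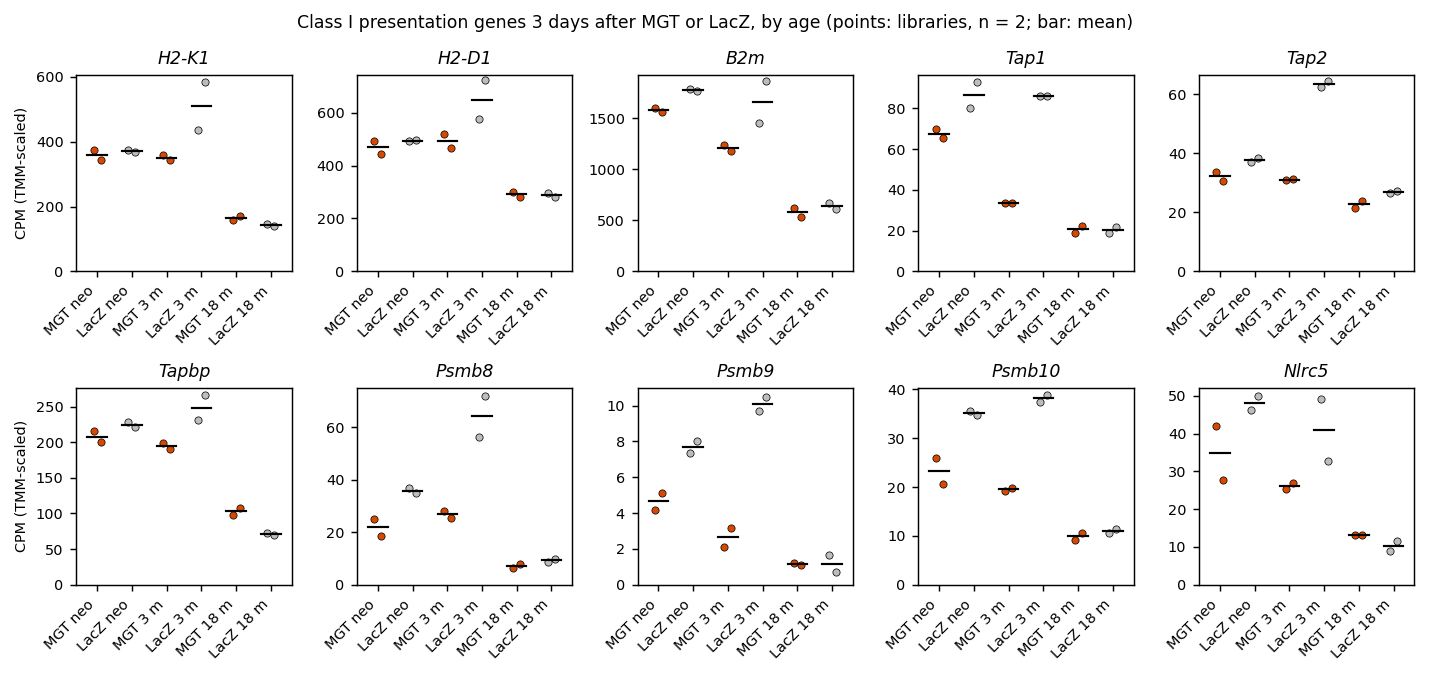
CPM of each of the 10 genes (vertical axes from 0, a separate scale per gene) in MGT and LacZ cells at 3 ages on the horizontal axes, MGT left of LacZ at each age; points are libraries (n = 2) and bars are means. Tap1 lies at 33.7 and 33.4 CPM in 3-month MGT cells, against 86.1 and 86.1 CPM in 3-month LacZ cells. In 18-month cells of both kinds it lies at 19.1 to 22.1 CPM. The 3-month difference of Nlrc5 did not pass the test.

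With MGT, 9 of the 10 genes fell at 3 months, where 8.39% of all 16368 genes tested were called lower, and 3 fell in neonatal cells (Tap1, Psmb8 and Psmb10, against 3.24% of all genes). At 18 months, 1 rose (Tapbp, against 8.52% of all genes called higher). The median log2 value over the 10 genes was -0.81 at 3 months, -0.29 in neonatal cells and -0.02 at 18 months. Without MGT replicate 2, none of the 3 neonatal calls held (Tap1 -0.30, Psmb8 -0.52, Psmb10 -0.44), and Tap1 also lost its call without LacZ replicate 2 (-0.24) or MGT replicate 1 (-0.40). The summed macrophage markers were at 428 to 441 CPM in 3-month MGT cells, against 329 to 339 CPM in 3-month LacZ cells, and the summed fibroblast markers were at 12701 to 13450 CPM, against 15904 to 16719 CPM. The cardiomyocyte markers were at 374 to 401 CPM in 3-month MGT cells, against 4.66 to 5.50 CPM in 3-month LacZ cells, the epicardial markers at 88.1 to 92.8 CPM, against 8.63 to 9.26 CPM, and the endothelial markers at 114 to 129.9 CPM, against 48.9 to 52.0 CPM. Nr4a3 averaged 41.1 CPM in 3-month MGT cells, against 12.4 CPM in 3-month LacZ cells (log2 value 1.72 ± 0.17, adjusted p = 1.25e-07). The part of these differences in the fall of the 10 genes was not tested.

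Tests of the MGT effect between ages compared the MGT over LacZ log2 values directly. The fall was larger at 3 months than in neonatal cells for Tap1 by -1.005 ± 0.14 and for Tap2 by -0.80 ± 0.14 (adjusted p = 4.86e-05 and 7.54e-04), 2 of the 10 genes against 1.41% of all genes called in that direction. For Psmb9 and H2-K1 the differences were -1.22 ± 0.35 and -0.49 ± 0.14 (adjusted p = 0.0515 and 0.0552). Between 18 and 3 months, 7 of the 10 genes had a higher MGT effect at 18 months, against 1.56% of all genes. The difference was 1.36 ± 0.16 for Tap1, 0.80 ± 0.15 for Tap2, 0.88 ± 0.12 for Tapbp and 0.76 ± 0.14 for H2-K1 (adjusted p = 1.74e-05, 0.00204, 1.66e-04 and 0.00376). It was 1.90 ± 0.48 for Psmb9, 0.83 ± 0.19 for Psmb10 and 0.86 ± 0.23 for Psmb8 (adjusted p = 0.0302, 0.0151 and 0.0436), and 1.02 ± 0.35 for Nlrc5 (adjusted p = 0.219). The Nlrc5 difference ran from 0.70 to 1.29 with 1 library left out and was called without 3-month LacZ replicate 2 (1.29, adjusted p = 0.0154), in DESeq2 (adjusted p = 0.027) and without the filter on low counts (adjusted p = 2.81e-05). Between 18-month and neonatal cells, only Tapbp of the 10 differed, by 0.64 ± 0.12 (adjusted p = 0.00261), against 2.03% of all genes. These tests share the groups of each age.

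Which genes were called with a different MGT effect depended on single libraries. Between 3 months and neonatal, H2-K1 (-0.70) and Psmb9 (-1.28) were among the genes also called without 3-month LacZ replicate 1. Between 18 and 3 months, H2-K1 (0.69), Psmb8 (0.70), Psmb9 (1.94) and Psmb10 (0.72) were no longer called without 18-month MGT replicate 2. Without 3-month MGT replicate 1, Psmb8 (0.92), Psmb9 (1.62) and Psmb10 (0.79) were no longer called. Psmb8 also lost its call there without 3-month LacZ replicate 2 (0.68), 18-month LacZ replicate 1 (0.76) or 2 (0.96), 3-month MGT replicate 2 (0.79) or 18-month MGT replicate 1 (1.02), and in the fit with the replicate number as a block (0.86, adjusted p = 0.0595). Psmb9 lost its call without 18-month LacZ replicate 2 (1.41) or 18-month MGT replicate 1 (1.87), and Psmb10 without 18-month LacZ replicate 1 (0.78).

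Among LacZ cells, H2-K1 had 374 and 368 CPM in neonatal, 436 and 585 CPM in 3-month, and 145 and 138 CPM in 18-month cells. Tap1 had 80.1 and 93.0, 86.1 and 86.1, and 19.1 and 22.02 CPM at these ages. Nlrc5 had 46.2 and 50.1, 49.1 and 32.7, and 8.81 and 11.6 CPM. The 18-month libraries were the lowest for each of the 3 genes and did not overlap the others. All 10 genes were called lower at 18 months than in neonatal LacZ cells (18.3% of all genes; median log2 value -1.67) and than in 3-month LacZ cells (12.2% of all genes; median -1.83). The 18-month over neonatal log2 value was -2.68 ± 0.29 for Psmb9, -2.24 ± 0.24 for Nlrc5, -2.08 ± 0.11 for Tap1 and -0.50 ± 0.10 for Tap2, the smallest of the 10. Between 3-month and neonatal LacZ cells, 4 of the 10 rose (15.1% of all genes): H2-K1 by 0.46 ± 0.10, H2-D1 by 0.39 ± 0.09, Tap2 by 0.75 ± 0.10 and Psmb8 by 0.84 ± 0.13. Without 3-month LacZ replicate 2 the H2-K1 value was 0.23 and the H2-D1 value 0.21.

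Among MGT cells, all 10 genes were lower at 18 months than in neonatal cells (16.2% of all genes; median -1.32) and than in 3-month cells (9.29% of all genes; median -0.98). At 3 months 3 of the 10 were lower than in neonatal MGT cells (13.5% of all genes): Tap1 by -1.01 ± 0.10, Psmb9 by -0.82 ± 0.28 and B2m by -0.39 ± 0.10. B2m did not pass the test without 3-month replicate 2 (-0.36), and Psmb9 did not pass it without neonatal replicate 2 (-0.67), without 3-month replicate 1 (-0.55) or in DESeq2. Between 18 and 3 months, Nlrc5 lost its call without any 1 of the 4 libraries (-0.95 to -1.04), Psmb9 lost its call without 3-month replicate 2 (-0.87), 18-month replicate 1 (-1.20) or 18-month replicate 2 (-1.14), and Tap2 without 18-month replicate 1 (-0.36). The summed macrophage markers were at 217 to 273 CPM in neonatal, 329 to 339 CPM in 3-month and 342 to 365 CPM in 18-month LacZ cells, and the summed fibroblast markers at 15995 to 16327, 15904 to 16719 and 8101 to 9138 CPM. In neonatal LacZ cells the epicardial markers were at 655 to 714 CPM, the cardiomyocyte markers at 294 to 341 CPM, the endothelial markers at 368 to 406 CPM and the pericyte or smooth muscle markers at 230.2 to 233 CPM. In adult LacZ cells the same 4 sums were at 8.63 to 14.9, 3.79 to 6.32, 34.6 to 52.0 and 22.3 to 42.9 CPM. In MGT cells the macrophage markers were at 182 to 252 CPM in neonatal, 428 to 441 CPM in 3-month and 386 to 454 CPM in 18-month cells, and the fibroblast markers at 13016 to 13577, 12701 to 13450 and 9671 to 11099 CPM. The cardiomyocyte markers were at 1054 to 1563, 374 to 401 and 341 to 358 CPM, the epicardial markers at 332 to 357, 88.1 to 92.8 and 68.8 to 77.5 CPM, and the endothelial markers at 374 to 407, 114 to 129.9 and 47.8 to 61.2 CPM in these MGT groups. The part of these differences in the lower levels of the 10 genes was not tested. Xist averaged 532 CPM in neonatal LacZ cells and at most 0.54 CPM in the adult LacZ cells, so age and sex cannot be told apart between neonatal and adult cells. Xist was near 0 at both 3 and 18 months, and the part of sex in the differences was not tested.

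The untransduced CFs and the LacZ cells came in separate tables that were scaled separately, so no test joins them. Side by side, neonatal cells had 374 and 368 CPM of H2-K1 with LacZ and 61.7 and 64.0 CPM untransduced, while 3-month cells had 436 and 585 CPM with LacZ and 318 and 326 CPM untransduced. The oldest cells had 145 and 138 CPM with LacZ at 18 months and 379 and 438 CPM untransduced at 24 months.

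Nr4a3 was checked in each library of the knockdown and overexpression tables. It had 0.431 and 0.744 CPM in shNr4a3 cells, against 8.18 and 8.84 CPM in shNT cells, and 175 and 178 CPM in OENr4a3 cells, against 1.85 and 2.49 CPM in OECtrl cells. The log2 fold change was -3.85 ± 0.27 for the knockdown and 6.35 ± 0.16 for the overexpression (edgeR adjusted p = 8.45e-08 and 1.28e-07), in the labelled direction in both.

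With Nr4a3 knocked down in 3-month MGT cells, 9 of the 10 genes fell, and Tapbp did not pass the test. The fall was largest for Psmb8 (to 0.0582 of the shNT level) and H2-K1 (to 0.0679), and smallest for Tap1 and B2m. The size differed between partner genes: Tap2 fell more than Tap1, and the heavy chains fell more than B2m.

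H2-K1 had 67.8 and 56.8 CPM in shNr4a3 cells, against 885 and 951 CPM in shNT cells. H2-D1 had 201 and 182 CPM in shNr4a3 cells, against 903 and 935 CPM in shNT cells, and B2m had 236 and 206 CPM, against 326 and 344 CPM. The shNr4a3 libraries lay below the shNT libraries without overlap for all 3. The log2 fold change was -3.88 ± 0.11 for H2-K1, -2.26 ± 0.09 for H2-D1 and -0.60 ± 0.09 for B2m (adjusted p = 3.42e-11, 4.83e-10 and 7.30e-05).

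Of the transporter and loading genes, Tap1 had 37.2 and 26.7 CPM in shNr4a3 cells, against 39.5 and 54.2 CPM in shNT cells. Tap2 had 14.6 and 12.3 CPM in shNr4a3 cells, against 44.1 and 49.0 CPM in shNT cells. Tapbp had 129 and 121.9 CPM, against 108 and 121.5 CPM. Tap1 came close to overlap, with 1 shNr4a3 library just under the lower shNT library, whereas Tap2 was clearly separated. The log2 value was -1.79 ± 0.12 for Tap2 (adjusted p = 4.85e-08), -0.55 ± 0.18 for Tap1 (adjusted p = 0.0297) and 0.13 ± 0.09 for Tapbp (adjusted p = 0.231). The Tap1 call was lost without shNr4a3 replicate 2 (-0.33, adjusted p = 0.202), without shNT replicate 2 (-0.32, adjusted p = 0.134) and with the replicate number as a block (-0.55, adjusted p = 0.308).

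Psmb8 had 5.22 and 3.30 CPM in shNr4a3 cells, against 67.4 and 78.7 CPM in shNT cells. Psmb9 had 2.27 and 1.93 CPM in shNr4a3 cells, against 3.85 and 5.605 CPM in shNT cells, and Psmb10 had 9.79 and 8.76 CPM, against 23.4 and 26.2 CPM. All 3 were lower in both shNr4a3 libraries, and Psmb8 fell far more than Psmb9. Their log2 values were -4.10 ± 0.18, -1.17 ± 0.26 and -1.42 ± 0.13 (adjusted p = 7.51e-09, 0.00174 and 7.34e-07). The regulator Nlrc5 had 5.70 and 3.39 CPM in shNr4a3 cells, against 22.6 and 29.1 CPM in shNT cells, a log2 value of -2.51 ± 0.22 (adjusted p = 2.52e-06).

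The 9 genes called lower stood beside 26.7% of all 18045 genes tested that were called lower with the knockdown, and the median log2 value over the 10 genes was -1.60, against 0.01 over all genes. The summed macrophage markers were at 112 to 116 CPM in shNr4a3 cells, against 125 to 161 CPM in shNT cells, and the summed fibroblast markers at 6948 to 7340 CPM, against 5159 to 5369 CPM. The summed cardiomyocyte markers were at 5535 to 6310 CPM in shNr4a3 cells, against 9470 to 11063 CPM in shNT cells, and the pericyte or smooth muscle markers at 106 to 117 CPM, against 47.5 to 51.02 CPM. The MGT factors were also lower in shNr4a3 cells, with log2 values of -0.56 ± 0.11 for Mef2c, -0.37 ± 0.09 for Gata4 and -0.37 ± 0.09 for Tbx5 (edgeR adjusted p = 7.76e-04, 0.0024 and 0.00469). The part of these differences was not tested.

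With Nr4a3 overexpressed in neonatal CFs, 3 of the 10 genes rose: H2-D1, Tap1 and Nlrc5. Nlrc5 had 9.97 and 10.2 CPM in OENr4a3 cells, against 6.09 and 4.07 CPM in OECtrl cells. Tap1 had 38.2 and 32.7 CPM in OENr4a3 cells, against 21.5 and 23.9 CPM in OECtrl cells, and H2-D1 had 528 and 552 CPM, against 373 and 437 CPM. Both OENr4a3 libraries were above both OECtrl libraries for all 3. The log2 value was 1.00 ± 0.21 for Nlrc5, 0.64 ± 0.13 for Tap1 and 0.42 ± 0.11 for H2-D1 (adjusted p = 0.0132, 0.0124 and 0.0259), against 11.9% of all 15029 genes called higher. The values of H2-K1 (0.34 ± 0.12, adjusted p = 0.0652), Psmb8 (0.51 ± 0.18, adjusted p = 0.0729), Psmb9 (0.70 ± 0.31, adjusted p = 0.127) and B2m (0.24 ± 0.11, adjusted p = 0.149) did not pass the test. Psmb10 had 13.7 and 11.6 CPM in OENr4a3 cells, against 16.0 and 16.8 CPM in OECtrl cells (log2 value -0.37 ± 0.15, adjusted p = 0.0959). For Psmb10, both OENr4a3 libraries lay below both OECtrl libraries.

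The calls moved with single libraries. Without OENr4a3 replicate 1, Tap1 (0.53) and H2-D1 (0.46) were no longer called. H2-D1 was also not called without OENr4a3 replicate 2 (0.39). Without OECtrl replicate 2, H2-K1 (0.48) and B2m (0.40) were also called higher. Without OECtrl replicate 1, H2-K1 (0.22) and Psmb8 (0.52) were also called higher and Psmb10 (-0.40) lower, while B2m was at 0.10. The summed macrophage markers were at 621 to 642 CPM in OENr4a3 cells, against 956 to 971 CPM in OECtrl cells. The epicardial markers were at 437 to 469 CPM in OENr4a3 cells, against 971 to 1032 CPM in OECtrl cells, the cardiomyocyte markers at 269 to 294 CPM, against 455 to 501 CPM, the pericyte or smooth muscle markers at 131 to 138 CPM, against 61.5 to 82.6 CPM, and the endothelial markers at 152 to 154 CPM, against 115 to 118 CPM. Xist averaged 484 CPM, against 253 CPM. Their part in the result was not tested.

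**Figure D3:**
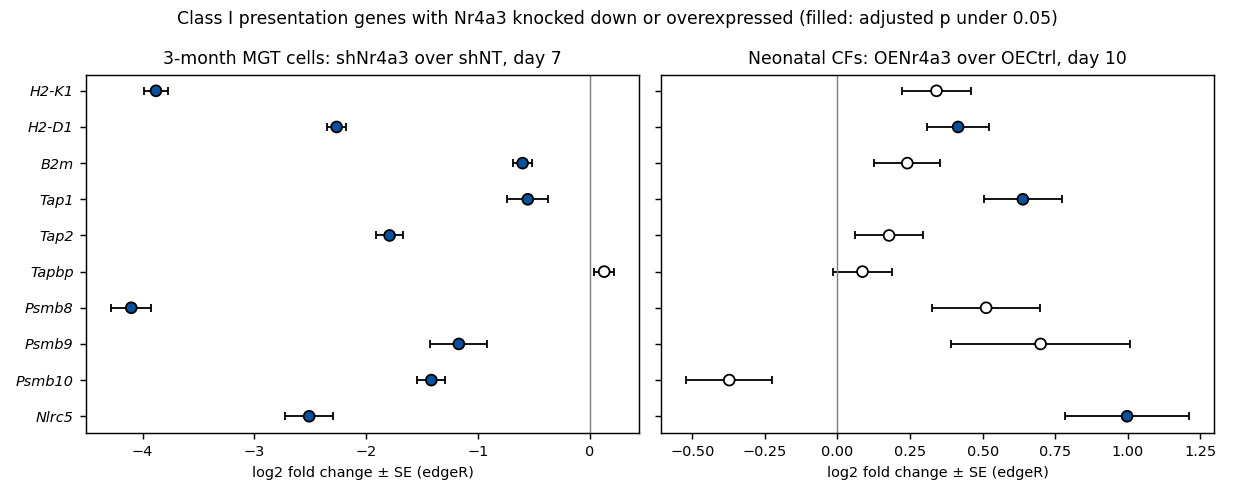
log2 fold change of each of the 10 genes (rows), shNr4a3 over shNT in 3-month MGT cells at left and OENr4a3 over OECtrl in neonatal CFs at right; bars are SE, filled points passed the test (edgeR adjusted p under 0.05), n = 2 libraries per group and the horizontal scales differ. Knockdown values lie between -4.10 (Psmb8) and 0.13 (Tapbp), and overexpression values between -0.37 (Psmb10) and 1.00 (Nlrc5).

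The ratio of the heavy chain genes to each other also changed. Per kilobase of gene length, H2-K1 was at 0.475 and 0.466 of H2-D1 in neonatal CFs, 0.733 and 0.719 at 3 months, 0.686 and 0.686 at 12 months, and 0.725 and 0.748 at 24 months. It was at 0.334 and 0.309 of H2-D1 in shNr4a3 cells, against 0.969 and 1.01 in shNT cells. It was at 0.165 and 0.171 in OENr4a3 cells, against 0.174 and 0.178 in OECtrl cells, the lowest values in the bulk data. In 18-month cells it was at 0.460 and 0.537 with MGT and at 0.429 and 0.432 with LacZ, below the range of 0.607 to 0.711 in the neonatal and 3-month cells of that table. No 150-base stretch of H2-K1 transcripts was shared with another annotated gene, and 1.35% of those of H2-D1 were shared, with H2-Q1. Genes on the opposite strand overlapped 10.1% of the 150-base stretches of Tapbp, 4.55% of those of Psmb8 and at most 1.46% of those of any other of the 10, and whether the counting used strand is not given. The labels name no strain of mouse, and H2-K1 and H2-D1 vary between strains.

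The share of each immunoproteasome subunit was also taken within its pair with the constitutive subunit it replaces. Psmb8 made up 1.37% and 2.10% of the length-scaled Psmb8 and Psmb5 sum in neonatal CFs, 13.1% and 11.8% at 3 months, 8.56% and 7.64% at 12 months, and 13.8% and 14.3% at 24 months. Psmb10 made up 16.8% and 16.2%, 39.4% and 41.0%, 28.3% and 28.2%, and 39.1% and 39.6% of the Psmb10 and Psmb7 sum. Psmb9 stayed at or below 3.86% of the Psmb9 and Psmb6 sum at all 4 ages. Each share was lowest in neonatal CFs and next lowest at 12 months. In shNr4a3 cells Psmb8 was at 6.12% and 4.08% of its pair, against 47.5% and 49.0% in shNT cells, and Psmb10 at 18.7% and 17.9%, against 40.6% and 41.1%. In 3-month cells Psmb8 was at 7.55% and 6.52% with MGT, against 13.99% and 14.2% with LacZ. These are shares of mRNA, not of assembled proteasomes.

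**Figure D4:**
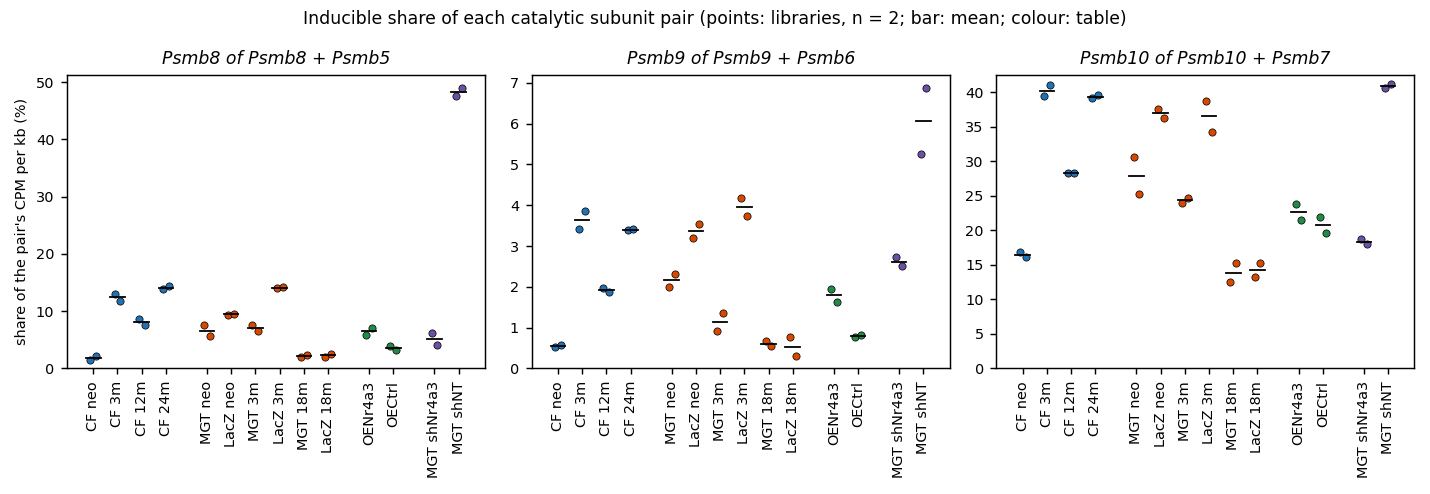
Share of each immunoproteasome subunit in the length-scaled CPM of its pair (percent, vertical axes from 0) in every bulk group on the horizontal axes; points are libraries (n = 2 per group). The Psmb8 share reaches 47.5% and 49.0% in shNT cells and lies at 6.12% and 4.08% in shNr4a3 cells.

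Other genes of the pathway, taken from lists written from pathway knowledge, are given for 5 comparisons that between them draw on all 4 bulk tables. In 24-month over neonatal CFs, 27.9% of all genes were called higher. There 8 of 9 other class I heavy chain genes tested rose, among them H2-T23 (4.18 ± 0.09) and H2-T22 (2.03 ± 0.06). H2-Q10 was at 0 CPM in both neonatal libraries and at 2.90 and 3.14 CPM in the 24-month libraries, so no fold is given. H2-Q and H2-T genes are near-identical in places, so reads may be split among them and these values are uncertain. All 7 other loading and folding genes rose, among them Calr, the chaperone calreticulin (0.91 ± 0.04), and the peptide-trimming enzyme gene Erap1 (1.14 ± 0.06). Of the 3 constitutive catalytic subunits, only Psmb7 was called, lower by 0.15 on the log2 scale, against 26.6% of all genes called lower. Psme1 and Psme2, which encode a proteasome activator, rose by 1.18 ± 0.07 and 1.21 ± 0.07. Of 16 factors that act at class I promoters, 10 rose and 2 fell, with the interferon-response factors Stat2 (2.12 ± 0.06), Irf9 (1.41 ± 0.07) and Irf1 (1.17 ± 0.09) among those that rose. Of 9 interferon genes 7 rose and 1 fell (Ifngr2, -0.76 ± 0.05), and of 6 class II genes 4 rose (Cd74, H2-Ab1, H2-Eb1 and H2-DMb1).

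With Nr4a3 knocked down, 26.7% of all genes were called lower. There 8 of 9 other heavy chain genes fell (median -1.30), led by H2-Q6 (-3.27 ± 0.14) and H2-Q7 (-2.62 ± 0.23). Psme1 and Psme2 fell by 1.96 and by 1.38 on the log2 scale, and none of the 3 constitutive catalytic subunits was called (0.01 to 0.21). Of the 16 promoter factors 9 fell, among them Stat2 (-1.22 ± 0.12), Irf1 (-1.19 ± 0.13) and Relb (-1.99 ± 0.23), and 3 rose (Rfxap, Nfyb and Nfya, against 27.9% of all genes called higher). Of 10 interferon ligand, receptor and signalling genes 7 fell, among them the type I receptor gene Ifnar1 (-1.35 ± 0.10), and 1 rose (Ifngr2, 0.91 ± 0.09). Of 4 class II genes only H2-Eb1 was called (1.37 ± 0.35). Usp18, an interferon-stimulated gene, had 18.7 and 30.8 CPM in shNr4a3 cells, against 127 and 170 CPM in shNT cells. The interferon beta gene Ifnb1 was at 0 CPM in both shNr4a3 libraries, against 0.278 and 0.348 CPM in shNT cells.

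With Nr4a3 overexpressed, 3 of the 16 promoter factors rose, against 11.9% of all genes called higher, and none fell. Stat2 (1.05 ± 0.11) and Irf9 (0.62 ± 0.11) were among the 3. Usp18 (1.47 ± 0.19), Jak1 (0.42 ± 0.11) and Jak2 (0.32 ± 0.10) rose among 9 interferon genes. Of the proteasome genes outside the immunoproteasome, all 3 constitutive catalytic subunits fell (-0.43 to -0.54), as did all 11 other subunits of the proteasome core (-0.34 to -0.63), against 10.8% of all genes called lower. In 3-month MGT over LacZ cells, 5 of the 16 promoter factors fell, against 8.39% of all genes called lower, and none rose. Among the 5 were Irf1 (-1.13 ± 0.14), Stat2 (-1.02 ± 0.17), Irf9 (-0.60 ± 0.10) and Irf2 (-0.45). There 4 of 8 other heavy chain genes fell (H2-Q4, H2-T23, H2-Q6 and H2-Q7) and 1 rose (H2-T10, 0.53), against 8.99% of all genes called higher. In 18-month over neonatal LacZ cells, 7 of the 16 promoter factors fell, against 18.3% of all genes called lower, and none rose. Stat2 (-2.76 ± 0.18) was among the 7. Usp18 averaged 177 CPM in neonatal, 181 CPM in 3-month and 12.8 CPM in 18-month LacZ cells. There 6 of 8 other heavy chain genes fell (median -0.72), and of the 3 constitutive subunits 1 rose (Psmb5, 0.24), against 16.7% of all genes called higher. Of 5 class II genes 2 rose there (H2-Ab1, 0.98, and Cd74, 1.78).

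The genes closest to the mean profile of the 10 over the 10 group means of the CF, MGT and LacZ tables were found by the root mean square difference of centred log2 levels, among 9231 genes. They were Tlr3, a sensor of double-stranded RNA (0.12), Trim12c (0.13), Helz2 (0.15), Herc6 (0.17) and Cd274, which encodes the inhibitory ligand PD-L1 (0.18). The 10 genes themselves lay between 0.14 (Psmb10) and 0.43 (Psmb8) from their mean. The points share libraries and depth, and the 2 tables were scaled separately.

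In the single-cell data, 5773 of 6796 barcodes from 24-month MGT cells and 3828 of 4816 from neonatal MGT cells were kept, with a median of 20771 and 13960 transcripts (unique molecular identifiers, UMIs) per barcode. The libraries shared 11 barcodes. With 1 library per age no test is possible, and the 95% intervals given cover counting error only. Summed over all kept barcodes, the 10 genes were lower in 24-month cells, at 3738 CPM against 4988 CPM in neonatal cells, a ratio of 0.749 (0.747 to 0.752). Each of the 10 was lower, by ratios of 0.448 to 0.944.

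H2-K1 was at 734 CPM in 24-month cells, against 878 CPM in neonatal cells (ratio 0.836, interval 0.829 to 0.843). H2-D1 was at 712 CPM, against 769 CPM (ratio 0.926), and B2m at 1942 CPM, against 2790 CPM (ratio 0.696). The heavy chain genes were thus closer between the ages than B2m. Psmb8 was at 74.3 CPM in 24-month cells, against 166 CPM in neonatal cells (ratio 0.448, interval 0.438 to 0.459). Psmb9 was at 16.7 CPM, against 35.1 CPM (ratio 0.475), and Tap1 at 23.8 CPM, against 49.3 CPM (ratio 0.483). These 3 were the genes of the 10 that were at least 2-fold lower in 24-month cells, against 12.5% of all 17725 genes. The ratio was 0.537 for Psmb10 and 0.579 for Nlrc5, and it was 0.944 for Tap2 and 0.940 for Tapbp. The median log2 ratio of the 10 was -0.66, against -0.04 over all genes. Nr4a3 was at 7.49 CPM in 24-month cells, against 2.23 CPM in neonatal cells.

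Cells were clustered without the 10 genes and the other pathway genes, and clusters were named from marker genes. The naming was done anew and does not come from the study. Fibroblast-like cells made up 51.2% of the 24-month and 23.9% of the neonatal barcodes, macrophage-like cells 14.3% and 5.199%, and cardiomyocyte-like cells 0.121% and 18.4%, while clusters that met no naming rule held 34.4% and 50.6%. Most of the fibroblast-like cells were in cluster 1 at 24 months (2601 barcodes) and in cluster 6 in the neonatal library (767 barcodes), so different clusters held most of the fibroblast-like class at the 2 ages. The macrophage-like class was a single cluster. Doublets were not removed.

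In fibroblast-like cells the 10 genes summed to 3685 CPM at 24 months, against 4720 CPM in neonatal cells (ratio 0.781, interval 0.777 to 0.784). In macrophage-like cells they summed to 4217 CPM, against 5916 CPM (ratio 0.713, interval 0.704 to 0.722). The sum was lower at 24 months in both classes. Within the fibroblast-like class H2-K1 was close at both ages (756 CPM at 24 months, against 826 CPM in neonatal cells; ratio 0.915), Psmb8 was lower (57.2 CPM, against 148 CPM), and Tapbp was higher (153 CPM, against 136 CPM; ratio 1.13, interval 1.10 to 1.16) in the class as a whole. Within each of the 3 fibroblast-like clusters that held barcodes of both ages, Tapbp was lower at 24 months, with ratios of 0.715 in cluster 1 (14 neonatal barcodes), 0.597 in cluster 6 (6 barcodes at 24 months) and 0.878 in cluster 8 (205 and 135 barcodes). H2-D1 was higher in the macrophage-like cells than in the fibroblast-like cells of both libraries: 1379 CPM, against 627 CPM, at 24 months, and 1800 CPM, against 707 CPM, in the neonatal library. The direction differed between the genes. B2m was lower in the macrophage-like cells, at 1621 CPM, against 1967 CPM, at 24 months, and 2408 CPM, against 2685 CPM, in the neonatal library. H2-K1 (719 CPM, against 756 CPM) and Tapbp (121 CPM, against 153 CPM) were lower there at 24 months but not in the neonatal library. In neonatal cardiomyocyte-like cells H2-K1 was at 409 CPM, H2-D1 at 390 CPM and B2m at 3296 CPM, with a median of 2047 UMIs per barcode, and the class had 7 barcodes at 24 months and is not compared. Cluster 5, with 908 neonatal barcodes and a median of 44900 UMIs, was led by cardiomyocyte genes such as Nppa, Myh6 and Ttn but stayed unnamed because fibroblast markers were also detected, and its neonatal barcodes had H2-K1 at 1013 CPM, H2-D1 at 768 CPM and Tap1 at 49.9 CPM. Psmb8 was likewise at 195 CPM in macrophage-like cells, against 57.2 CPM in fibroblast-like cells, at 24 months.

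A small fibroblast-like cluster of 143 barcodes, all from the 24-month library, stood apart. Among its leading genes were the interferon-stimulated genes Gbp4, Ifit1bl1, Cxcl10, Gbp5 and Rsad2, and none of these is one of the 10. In that cluster Psmb8 was at 232 CPM, against 46.8 CPM in the 24-month barcodes of the largest fibroblast-like cluster, and Nlrc5 at 29.4 CPM, against 3.51 CPM. Tap1 was at 135 CPM, against 19.3 CPM, and H2-K1 at 1017 CPM, against 758 CPM. The 10 genes summed to 5225 CPM there, against 3668 CPM in the largest cluster, and each of the 10 was higher. Without the 143 barcodes the 24-month over neonatal ratio of the sum in fibroblast-like cells was 0.767, and that of Nlrc5 was 0.421 rather than 0.547. The summed macrophage markers were at 3413 CPM over all 24-month barcodes, against 1094 CPM over all neonatal barcodes, and the summed cardiomyocyte markers at 94.9 CPM, against 7679 CPM. Xist was at 0.033 CPM in 24-month cells, against 169 CPM in neonatal cells, so age and sex cannot be told apart here.

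**Figure D5:**
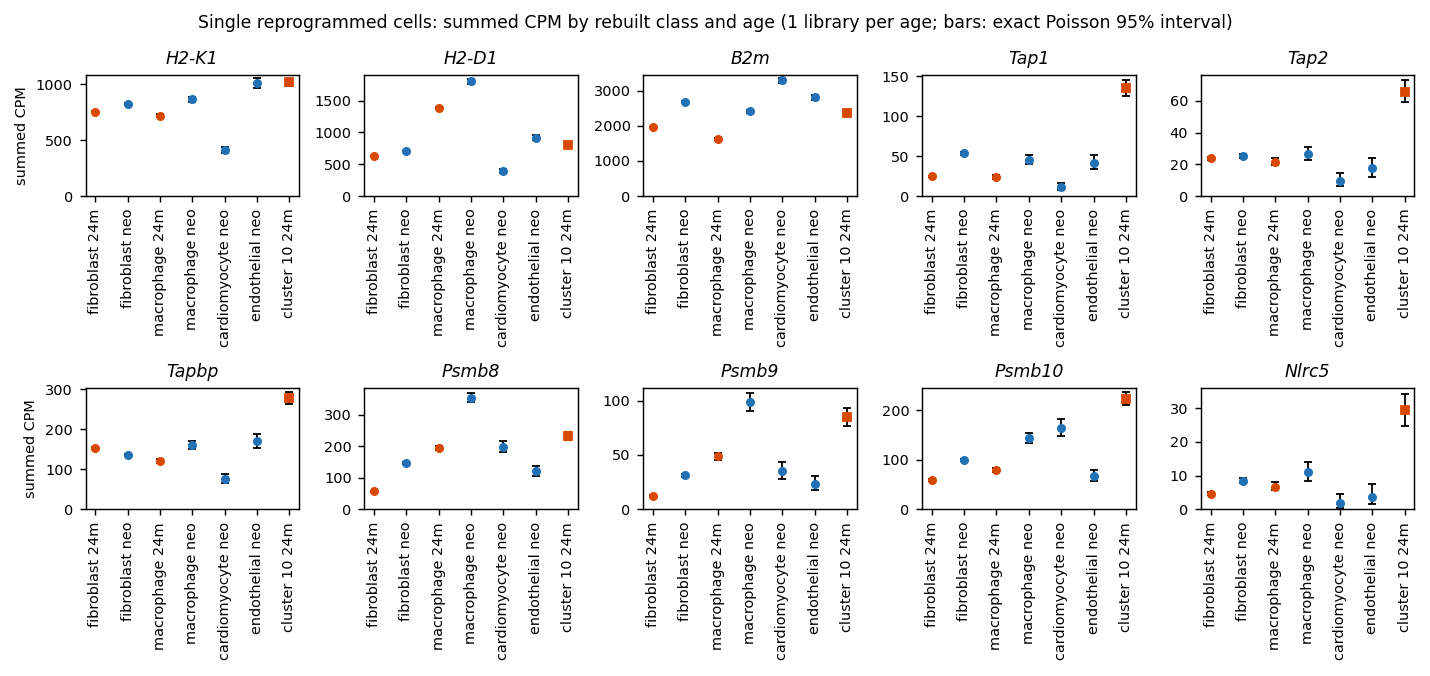
Summed CPM of each of the 10 genes (vertical axes from 0, a separate scale per gene) by class on the horizontal axes: fibroblast-like and macrophage-like cells of the 24-month (orange) and neonatal (blue) libraries, cardiomyocyte-like and endothelial-like cells of the neonatal library, and the 24-month fibroblast-like cluster of 143 barcodes (cluster 10, squares); bars are exact Poisson 95% intervals for counting error, with 1 library per age. Psmb8 lies at 57.2 CPM in 24-month and 148 CPM in neonatal fibroblast-like cells, and at 232 CPM in the cluster of 143 barcodes.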

How the data were processed

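RNA was measured in 28 bulk libraries and 2 single-cell libraries. The bulk values are raw read counts per gene, deposited by the authors in 4 tables; Trimmomatic 0.36, featureCounts of Subread 1.5.1, SAMtools and the mm10 build are named in the submitters' processing notes, and the aligner is not given in the sources used here. The single-cell values are deposited UMI counts. Gene lengths in the deposited tables were used for levels per kilobase, and the FPKM columns deposited by the authors were not used. A set of 4 columns of the knockdown table that match no sample was not used, nor were the coordinates of 2 tables that differ from GRCm38, so genes were joined by identifier. Where column headers and labels gave different ages or days, the labels were followed. The headers of the 12-month untransduced CFs give a slightly older age, and those of the 18-month MGT and LacZ cells a younger one. These columns were matched because no others were left for those samples, so the ages of these groups are uncertain.

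Each table was fitted separately over all its groups with edgeR 4.0.16 (R 4.3.3): a filter on low counts, TMM scaling, the quasi-likelihood test and Benjamini-Hochberg adjustment over all genes tested, with calls at an adjusted p under 0.05. The SE is the log2 fold change over the square root of F. Library totals ran from 14275501 to 43448379 counts. DESeq2 1.42.0, other size factors, no filter, the replicate number as a block, fits of 2 groups and leaving out each library were alternatives. The scripts were tested on simulated data.

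Barcodes under 500 genes or over 20% mitochondrial counts were left out, and the rest were clustered with scanpy 1.11.5 on 2000 variable genes, 50 components and 15 neighbours at a Leiden resolution of 0.5. A cluster was named for a type where at least 3 of its markers were each detected in 25% of the cells and the median log2 lift of its markers was at least 2, or, failing that, where a single type had 75% of its markers detected. Intervals are exact 95% intervals that cover counting error only. The 10 genes, the lists and the tests were chosen with earlier results of these data known. The genes named outside the 10 are the called members of the lists with the smallest p, and others named singly were chosen after their values were seen.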

Additional observations from a re-analysis of the deposited data

Results flagged for a closer look

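The genes listed here had an effect of MGT over LacZ that differed between ages by the edgeR test of the difference itself, with p-values adjusted over all genes. Of all genes, 1.41% were called with a lower effect at 3 months than in neonatal cells. The effect was called higher at 18 months for 2.03% of all genes against neonatal cells and for 1.56% against 3-month cells. Between 3-month and neonatal cells the log2 difference was -1.0046 for Tap1 and -0.8 for Tap2, both lower at 3 months. Between 18-month and neonatal cells it was 0.6411 for Tapbp. Between 18-month and 3-month cells it was 1.9003 for Psmb9, 1.3642 for Tap1, 0.883 for Tapbp, 0.8638 for Psmb8, 0.8304 for Psmb10, 0.7985 for Tap2 and 0.7593 for H2-K1. The 3-month LacZ replicates differed more than those of the other groups of their table (chi-square of 18.9 per degree of freedom, against 2.29 to 6.66). The part of this spread in the differences was not tested.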

How the results depend on the processing

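Results for single genes were tallied only where the main fit called the gene or its uncalled value is printed here (147 results). Calls gained by the other uncalled results are therefore not counted in this paragraph. Over the tallied results, no alternative reversed a direction. RLE size factors changed no call, and DESeq2 ended 5 calls and added 2. The replicate numbers do not pair the samples (correlations of -0.08 to 0.07), and a fit with them as a replicate block left all 20 counts of called genes within 1.5 times and ended 2 single calls (Psmb8 between the MGT effects at 18 and 3 months, and Tap1 with the knockdown). Leaving out each library in turn ended 51 calls and added 12.

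Without the filter on low counts, 5 rather than 3 of the 10 genes were lower with MGT in neonatal cells, the MGT effect differed between 3 months and neonatal for 4 rather than 2, and between 18 months and neonatal for 2 rather than 1. Of all 35771 genes tested without the filter, 1324, 771 and 634 were called in either direction in these comparisons, in that order. A fit of the 2 neonatal groups alone also gave 5 of the 10, where 1977 of all 15341 genes tested were called in either direction. Shares of all genes are not given for counts with 1 library left out, here or above. With 1 library left out, the count ran from 0 to 3 for MGT over LacZ in neonatal cells, from 2 to 8, 1 to 2 and 3 to 9 for the MGT effect at 3 months minus neonatal, 18 months minus neonatal and 18 minus 3 months, and from 1 to 6 for OENr4a3 over OECtrl. In single cells, the ratio of the summed genes was 0.781 in fibroblast-like cells alone, against 0.749 over all kept barcodes, and 16 of 60 class levels moved beyond their counting interval at a Leiden resolution of 1.0.

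The smallest difference that 2 libraries per group can show was not tested. Psmb9, the lowest of the 10 in every bulk group, had the widest error in every comparison.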
